A study of Saccharomyces cerevisiae with 4 samples.

Results

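Peroxisomes are the only site of fatty acid beta-oxidation in Saccharomyces cerevisiae. The genes described here are 37 genes for that pathway and for the organelle that houses it. They fall into 11 beta-oxidation genes (the enzymes with their substrate supply and the catalase that removes the hydrogen peroxide they make), 2 genes for the transcription factors that activate them, and 24 PEX genes, whose products build the organelle. Members were chosen by function, each read by the brightest probe set that the platform annotation gives to that gene alone. All 37 were found among the 5656 genes with such a probe set, and all 37 lay above the intensity floor of 18.5 on all 4 arrays, so that all were tested.

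The yeast was strain ATCC 4126, with no mutation or added agent named in the labels. It was grown in YP medium, a rich medium of yeast extract and peptone, with galactose as the sugar for arrays B and C of that group and with glucose for arrays A and B of the other. Each of the 4 Affymetrix arrays read total RNA from cells harvested at an optical density of 1.0 at 600 nm. No label tells whether A, B and C are separate cultures. The spread behind every p-value is that between these samples, and it may be technical. A culture average also cannot tell less transcript in each cell from fewer cells with the transcript.

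In this yeast, beta-oxidation genes are known to be repressed by glucose, weakly expressed on other sugars once the repression is lifted, and strongly induced by oleate. The induction needs the factors Oaf1 and Pip2, which bind together to oleate response elements, and Adr1, which acts when glucose is scarce. The enzymes are made in the cytosol and imported folded, through receptors that recognise a targeting signal at either end of the protein. The Pex proteins carry out that import, insert the membrane proteins, and set the size and number of the organelles.

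The galactose genes followed the sugar labels. The galactose permease gene GAL2 had 13875 and 16114 in galactose B and C, against 39.8 and 34.1 in glucose A and B. GAL1, GAL7 and GAL10 lay between 4717 and 9927 on the galactose arrays and at or under 45.7 on the glucose arrays. Array medians ran from 108 to 117. Pearson's r of the log2 values over the 7302 probe sets tested, which are not independent replicates, was 0.956 between the galactose arrays and 0.977 between the glucose arrays.

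The comparison of the media asked whether galactose changed these genes relative to glucose. None of the 37 passed in either direction (limma, adjusted p from 0.664 to 0.998), and 0 passed at an unadjusted p under 0.05. Of all 7302 probe sets, 0.794% were called higher in galactose and 0.0411% lower, and at an unadjusted p under 0.05 the shares were 4.29% and 4.33%. The median difference, galactose minus glucose on the log2 scale, was -0.28 for the 11 beta-oxidation genes, 0.07 for the 24 PEX genes and -0.01 for all probe sets tested. The small medians do not show that the media act alike, because the 95% intervals were wide. The median distance from a gene's difference to either end of its interval was 1.42 for the beta-oxidation genes and 0.76 for the PEX genes, against 0.72 for all probe sets. The median of the beta-oxidation genes turned to 0.05 without galactose B and to 0.41 without glucose A. It was -0.69 with galactose C left out and -0.85 with glucose B left out. The PEX median turned to -0.12 without galactose C, stood at 0.25 without galactose B and 0.15 without glucose A, and went to 0.02 without glucose B.

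**Figure D1:**
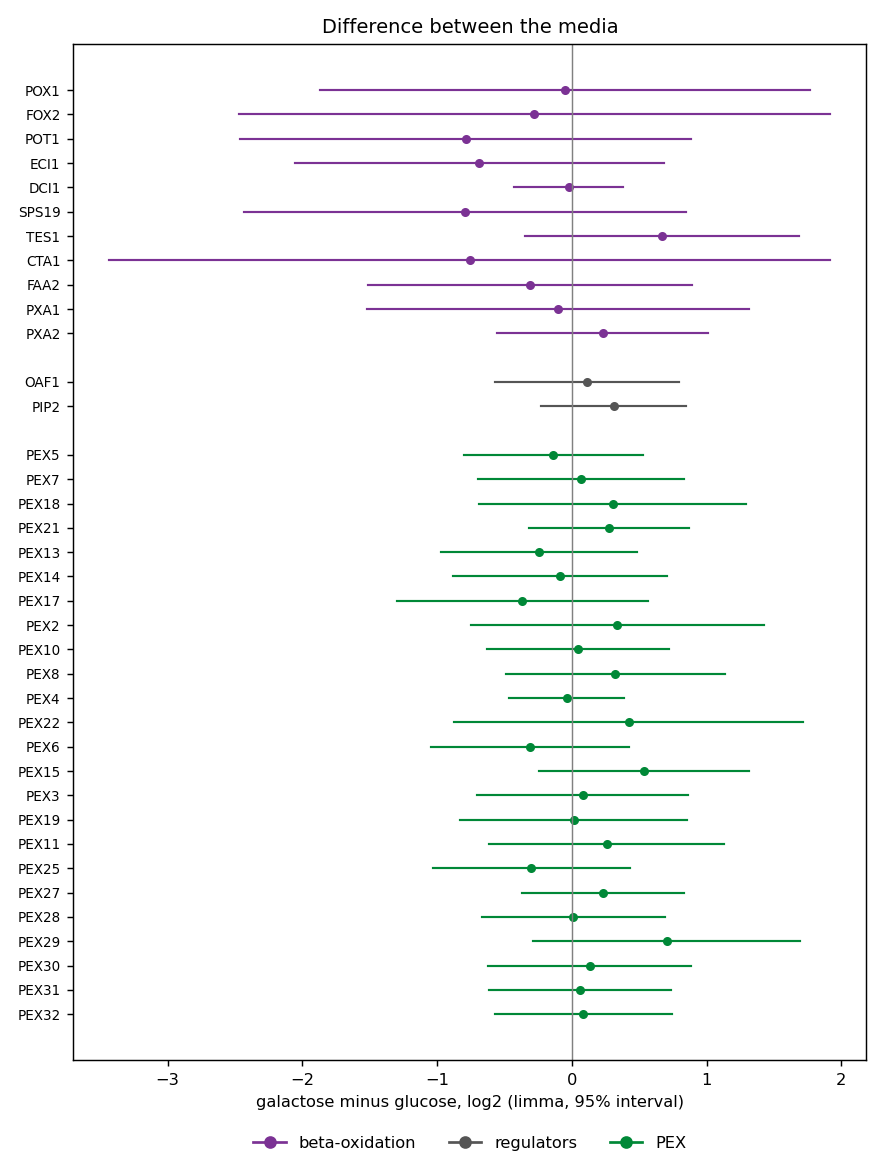
Difference between the media for each of the 37 genes, in log2 units (galactose minus glucose, limma, n = 2 arrays per medium). Points are estimates and lines 95% intervals. All 37 intervals cross 0, and those of CTA1, FOX2, POX1 and POT1 are among the widest.

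The beta-oxidation genes differed more between the arrays of 1 medium than between the means of the media. Their median absolute log2 difference was 1.18 between the galactose arrays, 1.09 between the glucose arrays and 0.31 between the media, against 0.38, 0.25 and 0.25 for all probe sets. A difference between single arrays varies more than a difference between means of 2 arrays, so these sizes are not like for like. All 11 beta-oxidation genes were higher on galactose C than on galactose B, and all 11 were higher on glucose A than on glucose B. These counts include DCI1, which lay close to the floor and had gaps of only 1.11-fold and 1.19-fold. Over all probe sets tested, 46.3% were higher on galactose C than on galactose B by any amount, and 44.2% were higher on glucose A than on glucose B. At least a 2-fold difference was seen for 7 of 11 between the glucose arrays, all lower on glucose B, and for 6 of 11 between the galactose arrays, all higher on galactose C. Over all probe sets tested, 3.27% were at least 2-fold lower on glucose B than on glucose A (1.01% higher), and 5.94% were at least 2-fold higher on galactose C than on galactose B (6.78% lower). Both differences held for 5 of 11 (POX1, FOX2, POT1, CTA1 and PXA1), where the share over all probe sets was 1.67%. With 1 array on each side of these differences there is no test.

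The 3 core enzymes of the cycle showed the pattern in full. FOX2 (YKR009C), the multifunctional enzyme for the hydratase and dehydrogenase steps, had 310.5 and 1089 in galactose B and C, against 1277 and 389.6 in glucose A and B. It was 3.51-fold higher on galactose C than on galactose B and 3.28-fold higher on glucose A than on glucose B. The ranges of the media overlapped almost entirely, with means of 699.9 ± 551 in galactose and 834 ± 628 in glucose (SD, n = 2 each here and below; log2 difference -0.28, standard error 0.84, adjusted p = 0.946).

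POT1 (YIL160C), the thiolase that releases acetyl-CoA at the end of each round, had 481 and 1344 in galactose B and C, against 2048 and 937 in glucose A and B. The lower galactose array lay below both glucose arrays, the higher one between them (912 ± 610.1 in galactose and 1493 ± 786 in glucose, log2 difference -0.79, adjusted p = 0.769). POX1 (YGL205W), the acyl-CoA oxidase of the first step, had 52.7 and 128 in galactose B and C, against 146 and 49.3 in glucose A and B. Its arrays paired across the media, galactose C with glucose A and galactose B with glucose B (log2 difference -0.05, adjusted p = 0.992). POX1 is the only member with more than 1 probe set, and its 4 probe sets did not give the same size. The next brightest had 75.2 and 142 in galactose B and C, against 75.8 and 48.1 in glucose A and B, so that glucose A was 1.58-fold above glucose B there and 2.97-fold on the probe set used. The third had a gap of 1.23-fold, and the dimmest lay at 18.2 on glucose B, under the floor, so that its gap is only a bound. Of the 3 probe sets of POX1 above the floor on all arrays, 1 showed the 2-fold difference between the glucose arrays. Their log2 differences between the media were unlike as well. That of the next brightest was 0.77 (limma, adjusted p = 0.674), against -0.05 for the probe set used and -0.07 for the third.

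The plot of intensities sets 4 beta-oxidation genes beside 4 PEX genes.

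**Figure D2:**
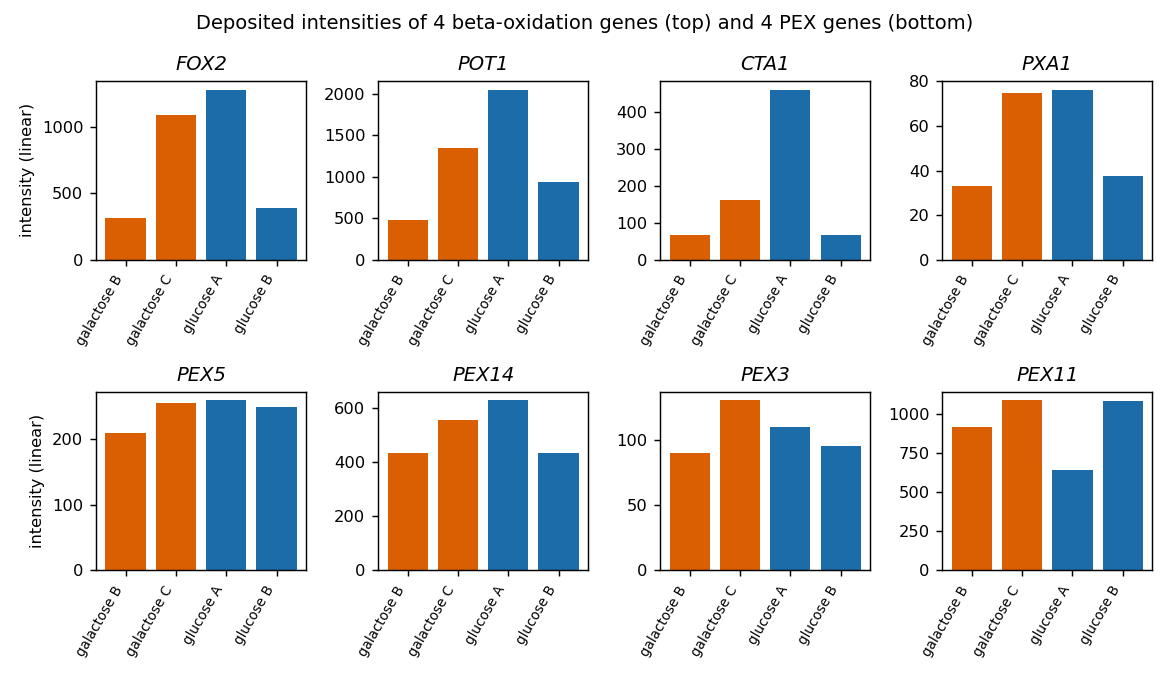
Deposited intensities (linear, each axis from 0) on the 4 arrays, 1 bar each, with the galactose arrays left of the glucose arrays. FOX2, POT1, CTA1 and PXA1 are higher on galactose C and glucose A than on the other array of their medium, while PEX5 stays between 209.5 and 259 and PEX11 has its lowest bar on glucose A.

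Catalase A, the peroxisomal catalase, had the largest gap of any member between the glucose arrays. CTA1 (YDR256C) stood at 67.1 and 161 in galactose B and C, against 461 and 66.8 in glucose A and B. It was 6.90-fold higher on glucose A than on glucose B and 2.40-fold higher on galactose C than on galactose B. Galactose B and glucose B lay within 1 unit of each other, and the means were 114 ± 66.3 in galactose and 264 ± 279 in glucose (log2 difference -0.76, adjusted p = 0.862).

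The auxiliary enzymes, which let unsaturated fatty acids and other acyl-CoAs enter or leave the cycle, were less uniform. SPS19 (YNL202W), the dienoyl-CoA reductase, had 90.01 and 164 in galactose B and C, against 361 and 123 in glucose A and B. ECI1 (YLR284C), the enoyl-CoA isomerase, had 83.6 and 191 in galactose B and C, against 268 and 154 in glucose A and B. For both genes galactose B was the lowest array and glucose A the highest, with log2 differences of -0.79 (adjusted p = 0.766) and -0.69 (adjusted p = 0.762). DCI1 (YOR180C), a relative of ECI1, lay close to the floor on every array, between 20.3 and 24.2, where a difference was not detectable.

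TES1 (YJR019C), the peroxisomal acyl-CoA thioesterase, shared the order of the other enzymes between arrays of 1 medium, but not their overlap between the media. It had 307 and 573 in galactose B and C, against 298 and 234 in glucose A and B, and was the only beta-oxidation gene with both galactose arrays above both glucose arrays (439.7 ± 188 in galactose and 266 ± 44.9 in glucose). The log2 difference of 0.67, with a 95% interval from -0.35 to 1.68, did not pass (adjusted p = 0.694). Galactose B exceeded glucose A by only a small margin.

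The supply genes followed the core enzymes with smaller gaps. FAA2 (YER015W), which activates medium-chain fatty acids inside the peroxisome, had 89.1 and 128 in galactose B and C, against 193 and 90.7 in glucose A and B. PXA1 (YPL147W) and PXA2 (YKL188C) encode the subunits of the ABC transporter that brings long-chain acyl-CoA across the membrane. PXA1 had 33.1 and 74.9 in galactose B and C, against 76.3 and 37.5 in glucose A and B, while PXA2 had 64.4 and 89.6 in galactose B and C, against 75.4 and 55.7 in glucose A and B. Although their products work as a pair, the gap between galactose C and galactose B was 2.26-fold for PXA1 and 1.39-fold for PXA2, and that between glucose A and glucose B was 2.04-fold and 1.35-fold.

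By array, glucose A was the highest for 9 of 11 beta-oxidation genes and galactose C for the other two, TES1 and PXA2. Galactose B was the lowest for 6 and glucose B for 5. Of all 7302 probe sets, 1342 were highest on glucose A and 2179 on galactose C, while 1840 were lowest on galactose B and 1430 on glucose B. Relative to each gene's mean over the 4 arrays, the 11 genes had a median log2 level of -0.67 (galactose B) and 0.35 (galactose C), against 0.74 (glucose A) and -0.39 (glucose B). Between the lower arrays, galactose B minus glucose B, the median log2 difference was -0.03, and between the higher ones, galactose C minus glucose A, it was -0.23, against -0.03 and 0.00 for all probe sets.

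**Figure D3:**
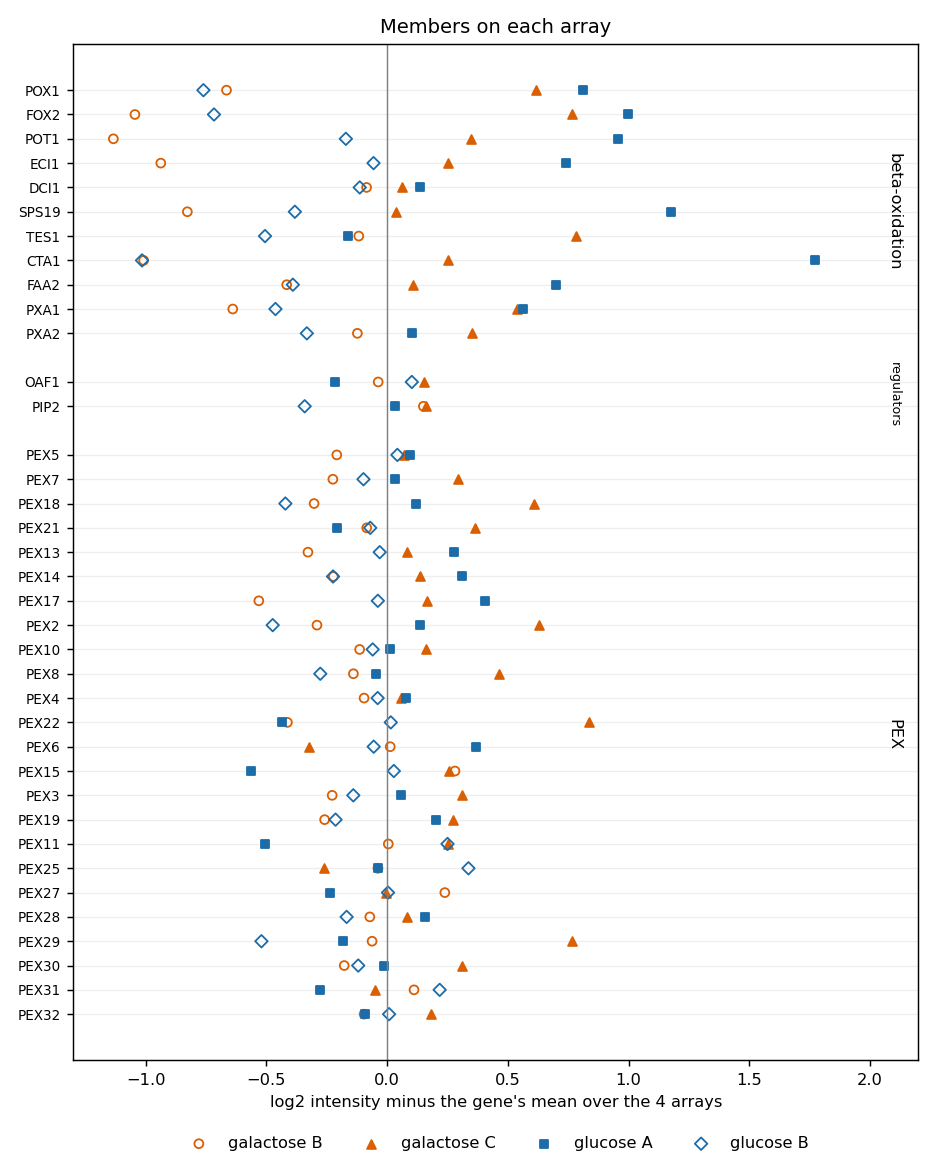
Log2 intensity of each of the 37 genes on the 4 arrays, minus that gene's own mean over the arrays. In the beta-oxidation block the filled symbols (galactose C, glucose A) lie right of both open symbols (galactose B, glucose B) except for TES1. There glucose A lies left of galactose B. The PEX block is narrower and has no order common to all its genes. Of the 24 PEX genes, 15 have each filled symbol right of the open symbol of its medium, as do 2145 of 7302 probe sets.

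The genes for the activators of the pathway had smaller gaps between arrays of 1 medium than the core enzymes, and they differed in order. OAF1 (YAL051W) had 293 and 334 in galactose B and C, against 258 and 322 in glucose A and B. Its lowest array was glucose A, the array on which most of the enzyme genes were highest. PIP2 (YOR363C) had 43.7 and 44.1 in galactose B and C, against 40.3 and 31.1 in glucose A and B. It had the order of the beta-oxidation genes in both pairs, as did 2145 of 7302 probe sets. Galactose C was 1.01-fold above galactose B, and glucose A 1.30-fold above glucose B. Like TES1 it was apart between the media, with both galactose arrays above both glucose arrays, by 0.31 on the log2 scale with a 95% interval from -0.23 to 0.85, and did not pass (adjusted p = 0.734).

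The 24 PEX genes had smaller gaps between arrays of 1 medium than the beta-oxidation genes. None was at least 2-fold apart between the glucose arrays in either direction, and only PEX22 was between the galactose arrays. Over all probe sets tested, 3.27% were at least 2-fold lower on glucose B than on glucose A, and 1.01% higher. Between the galactose arrays, 5.94% were at least 2-fold higher on galactose C and 6.78% lower. With 24 genes, counts of 0 and 1 lie near these shares. The median log2 difference, galactose C minus galactose B, was 0.38 for the PEX genes, 1.18 for the beta-oxidation genes and -0.02 for all probe sets. The median of glucose B minus glucose A was -0.12 for the PEX genes, -1.09 for the beta-oxidation genes and 0.03 for all probe sets. Of the PEX genes, 19 of 24 were higher on galactose C than on galactose B (20 of 24 after quantile normalization or a shift to a common median), against 3381 of 7302 over all probe sets. On glucose A, 16 of 24 were higher than on glucose B, against 3228 of 7302. Both orders were seen together in 15 of 24 PEX genes, against 2145 of 7302 probe sets.

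**Figure D4:**
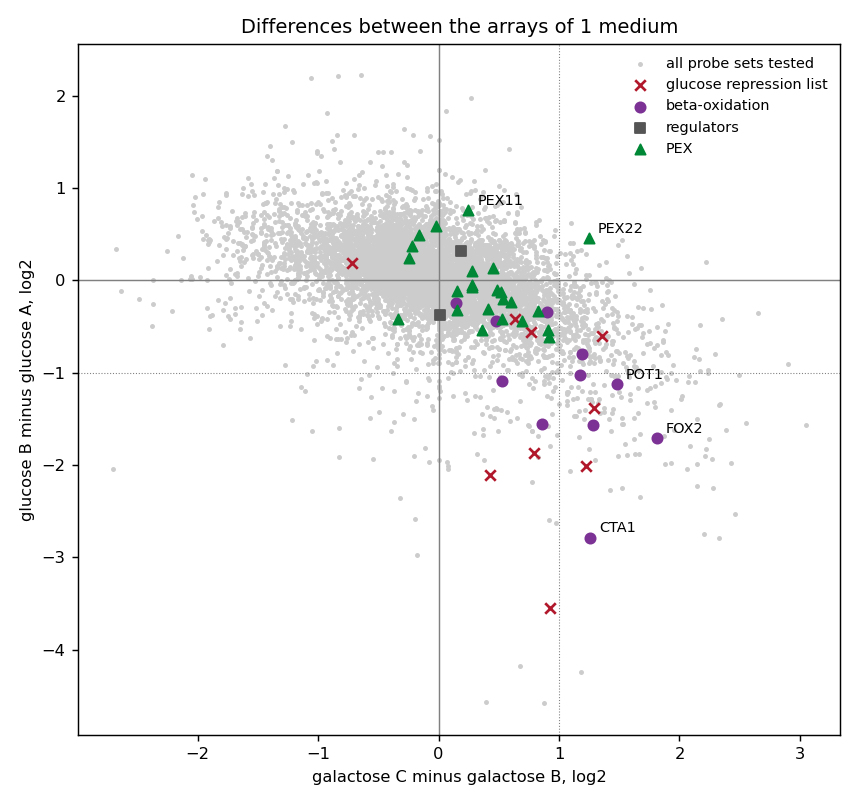
Log2 difference between the galactose arrays (galactose C minus galactose B, horizontal) and between the glucose arrays (glucose B minus glucose A, vertical). Grey points are the 7302 probe sets tested, coloured symbols the gene lists, and dotted lines mark a 2-fold difference. All 11 beta-oxidation genes lie to the right of 0 and below 0, and 5 lie beyond both dotted lines, while no PEX gene does.

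Across the 37 genes, Pearson's r between the difference galactose C minus galactose B and the difference glucose A minus glucose B was 0.673. Across all 7302 probe sets it was 0.503, and across the 5403 genes tested with 1 probe set each it was 0.570. The compared differences share no array, and genes are not independent replicates, so the values are descriptions only. Among the 11 beta-oxidation genes r was 0.585, and among the 24 PEX genes 0.359.

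Of the 4 import receptor genes, PEX5 had the narrowest range over the arrays, at 1.24-fold from lowest to highest, and PEX18 the widest, at 2.04-fold. PEX5 (YDR244W), the receptor for the C-terminal targeting signal that most matrix enzymes carry, had 209.5 and 254 in galactose B and C, against 259 and 249 in glucose A and B. PEX7 (YDR142C), the receptor for the N-terminal signal that the thiolase Pot1 carries, had 90.4 and 129 in galactose B and C, against 108 and 98.7 in glucose A and B. The gaps of the co-receptor gene PEX18 (YHR160C) were wider than those of PEX21 (YGR239C), which encodes a related co-receptor. PEX18 had 29.5 and 55.4 in galactose B and C, against 39.5 and 27.2 in glucose A and B, while PEX21 had 37.7 and 51.5 in galactose B and C, against 34.6 and 38.1 in glucose A and B. PEX7, PEX18 and PEX21 were highest on galactose C, as were 2179 of 7302 probe sets, and PEX5 was highest on glucose A by a small margin. The adjusted p of the media difference (limma) ran from 0.769 to 0.963.

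The docking genes, for the membrane complex that receptors bind, were highest on glucose A for all 3, against 1342 of 7302 probe sets. PEX14 (YGL153W) had 435 and 558 in galactose B and C, against 630.1 and 435 in glucose A and B. PEX13 (YLR191W) ranged from 65.8 to 100.04 and PEX17 (YNL214W) from 69.7 to 133, both lowest on galactose B. Their gaps between the glucose arrays, 1.24-fold to 1.45-fold, were smaller than that of any core beta-oxidation enzyme.

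PEX2 (YJL210W) and PEX10 (YDR265W) encode RING ubiquitin ligases that mark the receptor for release, and PEX8 (YGR077C) a protein inside the peroxisome that links docking and ligase complexes. PEX2 had 839.7 and 1589 in galactose B and C, against 1128 and 739.5 in glucose A and B, with means of 1215 ± 530.1 in galactose and 934 ± 275 in glucose. Galactose C stood apart from the other 3 arrays, at 1.89-fold the level of galactose B. PEX8 had 316 and 479.8 in galactose B and C, against 337 and 287 in glucose A and B. PEX10 stayed between 124 and 149.9. All 3 were highest on galactose C, as were 2179 of 7302 probe sets, and none was apart between the media.

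Receptor recycling held the PEX gene with the largest gap between arrays of 1 medium. PEX22 (YAL055W), the membrane anchor of the ubiquitin-conjugating enzyme Pex4, had 119 and 284 in galactose B and C, against 117 and 161 in glucose A and B. It was 2.38-fold higher on galactose C than on galactose B, but its lowest array was glucose A, and the media overlapped (202 ± 116 in galactose and 139 ± 30.6 in glucose, log2 difference 0.42, adjusted p = 0.836). PEX4 (YGR133W) itself stayed between 30.6 and 34.5. PEX6 (YNL329C), an AAA ATPase that pulls the receptor out, had 533 and 422 in galactose B and C, against 681 and 508 in glucose A and B.

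PEX15 (YOL044W), the membrane anchor of that ATPase, was 1 of 2 PEX genes with both galactose arrays above both glucose arrays, at 110.0 and 108 in galactose B and C, against 61.2 and 92.3 in glucose A and B (log2 difference 0.54, 95% interval from -0.24 to 1.32, adjusted p = 0.676). The other was PEX29 (YDR479C), one of the genes for size and number, at 157 and 279 in galactose B and C, against 144 and 114 in glucose A and B (log2 difference 0.70, 95% interval from -0.29 to 1.69, adjusted p = 0.664). With TES1 and PIP2, 4 of 37 members were apart upward, and 1 of 37, PEX25, was apart downward. PEX25 was apart only by the margin of 171.30 in galactose B against 171.45 in glucose A. Over all probe sets these shares were 17.0% and 22.1%.

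The membrane assembly genes PEX3 (YDR329C) and PEX19 (YDL065C), for the docking factor and the carrier of newly made membrane proteins, overlapped between the media. PEX3 had 89.9 and 131 in galactose B and C, against 109.7 and 95.6 in glucose A and B. PEX19 had 204 and 295 in galactose B and C, against 281 and 210.5 in glucose A and B. Their log2 differences were 0.08 and 0.01.

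The proliferation genes ran against the beta-oxidation genes between the glucose arrays. PEX11 (YOL147C), which drives the division of peroxisomes and is itself induced by oleate, had 916 and 1089 in galactose B and C, against 642 and 1086 in glucose A and B (1002 ± 122 in galactose and 864 ± 314 in glucose, log2 difference 0.26, adjusted p = 0.853). Its lowest array was glucose A, where 9 of 11 beta-oxidation genes were highest, and its glucose B minus glucose A difference of 0.76 was the largest upward one of the 37. PEX25 (YPL112C) had 171 and 147 in galactose B and C, against 171 and 222 in glucose A and B, and PEX27 (YOR193W) had 70.7 and 59.7 in galactose B and C, against 50.8 and 60.1 in glucose A and B. All 3 were lower on glucose A than on glucose B. Over all probe sets tested, 44.2% were higher on glucose A than on glucose B, so 3 genes of the other order are not unusual. Between the galactose arrays, PEX11 was higher on galactose C, as the beta-oxidation genes were, while PEX25 and PEX27 were lower.

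For the other genes of size and number, which act at the peroxisome and the endoplasmic reticulum, the arrays stayed within a factor of 1.41. PEX28 (YHR150W) ranged from 88.2 to 110.4, PEX30 (YLR324W) from 203 to 285, PEX31 (YGR004W) from 46.5 to 65.5 and PEX32 (YBR168W) from 92.4 to 112. Their log2 differences between the media ran from 0.01 to 0.13.

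Other peroxisomal genes outside the 37 were read in the same way. Of 7 tested genes for further PEX proteins, fission and inheritance, 0 passed in either direction (limma, adjusted over all probe sets), and 0 had an unadjusted p under 0.05. FIS1, a fission factor shared with mitochondria, had 1855 and 3151 in galactose B and C, against 2052 and 1753 in glucose A and B. VPS1, the dynamin-related fission protein, had 448 and 503 in galactose B and C, against 699 and 624 in glucose A and B (adjusted p = 0.633). None of the 7 was at least 2-fold apart between arrays of 1 medium. Over all probe sets tested, 3.27% were at least 2-fold lower on glucose B and 5.94% higher on galactose C, so 0 of 7 is near these shares.

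Of 17 other peroxisomal enzymes and carriers, 0 passed between the media (limma, adjusted over all probe sets), and 1 had an unadjusted p under 0.05, the glutathione transferase gene GTO1, lower in galactose by value (log2 difference -0.62, adjusted p = 0.553). Between arrays of 1 medium, 5 were at least 2-fold lower on glucose B than on glucose A and 2 were at least 2-fold higher on galactose C than on galactose B. Over all probe sets tested, these shares were 3.27% and 5.94%, so 2 of 17 is not far from its share. PNC1, the nicotinamidase, had 4447 and 7409.5 in galactose B and C, against 3967 and 4424 in glucose A and B, and GPD1, a glycerol phosphate dehydrogenase, had 2458 and 4602 in galactose B and C, against 3202 and 2567 in glucose A and B. The 2 genes beyond 2-fold in both pairs, named after their values were seen, were those for the carnitine acetyltransferase CAT2 and the malate synthase MLS1. CAT2 had 621 and 1757 in galactose B and C, against 1593 and 689 in glucose A and B. MLS1 had 1589 and 3917 in galactose B and C, against 5040.2 and 1305 in glucose A and B.

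Genes of glucose repression outside the peroxisome differed between the arrays of 1 medium as well. Of 9 in the list (ADR1, OAF3, SNF1, ADH2, ACS1, ICL1, FBP1, PCK1 and CTT1), 5 were at least 2-fold lower on glucose B than on glucose A. Between the galactose arrays, 3 were at least 2-fold higher on galactose C than on galactose B. Over all probe sets tested, these shares were 3.27% and 5.94%. Between the media 0 passed (limma, 0 also at an unadjusted p under 0.05). PCK1, for the first step of gluconeogenesis, had 1809 and 3142 in galactose B and C, against 6755 and 1854 in glucose A and B. CTT1, the cytosolic catalase gene induced by stress, had 1543 and 3960.0 in galactose B and C, against 1877 and 1232 in glucose A and B, and was highest on galactose C rather than on glucose A. The largest gap in the list, named after its values were seen, was that of ADH2, the glucose-repressed alcohol dehydrogenase gene, at 180.2 and 342 in galactose B and C, against 2495 and 213 in glucose A and B. OAF3 ran the other way in both pairs, with 186 and 113 in galactose B and C, against 131 and 148 in glucose A and B. ADR1, the activator gene, was 1.70-fold higher on galactose C than on galactose B and 1.47-fold higher on glucose A than on glucose B. The glucose left in each culture at harvest is not known here, and the part of glucose repression in the differences between arrays was not tested. Galactose B and glucose B, the lower arrays, also share a letter whose meaning the labels do not give, and its part was not tested.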

How the data were processed

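Total RNA of 4 yeast samples, 2 per medium, was measured on Affymetrix arrays. The authors deposited linear intensities, summarised to 1 value per probe set and array. How they corrected the background and scaled the arrays, and with what software, is not given in the sources used here. Array medians differed by a factor of 1.08, under the 1.1 above which arrays would have been rescaled, so the intensities were kept as deposited.

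Without 60 array controls, 9275 probe sets were left, of which the platform annotation gave 6504 a single gene, 328 several and 2443 none. Where a gene had more than 1 probe set, that with the highest mean over the 4 arrays was used. Values under the 25th percentile of all intensities (18.5) were raised to it before the log2 step. The 7302 probe sets above this floor on at least 1 array were fitted with limma 3.58.1 in R 4.3.3 (eBayes with trend, 2 residual and 4.73 total degrees of freedom), with the Benjamini-Hochberg adjustment over all of them. The fit was tested on simulated data.

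All 37 members are named, and from each other list the genes past the adjusted threshold of 0.05 or, with none, the brightest pair, along with any apart between the media by at least 1 on the log2 scale. The members, lists and tests were chosen with earlier results of these data known. Alternatives changed the scaling (quantile normalization, or arrays shifted to 1 common median), the floor (the 10th or 40th percentile, none with 18.5 added to each intensity, or only those probe sets that exceed it on every array), the fit (eBayes robust, or with no trend), the arrays (leaving out each in turn) and the probe sets (their mean for each gene). The fit with 1 probe set per gene was added after the data were seen.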

Additional observations from a re-analysis of the deposited data

How the results depend on the processing

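No paired analysis was possible because the media share only the letter B. With the floor at the 40th percentile only 32 of the 37 members were tested, because the others did not exceed it on any array. Among the 37 members, 0 passed under any of the 14 other fits, and the lowest adjusted p in any of them was 0.251, without galactose B. In that fit galactose C stands alone and is assumed to vary like the glucose arrays; 2 members reached an unadjusted p under 0.05 there, both higher in galactose. Of 32 members whose media overlapped, 23 changed sign in at least 1 fit; for the 5 that were apart, leaving out 1 array cannot turn the sign. Over all probe sets, 58 were called higher in galactose and 3 lower; the numbers higher fell to 25 with quantile normalization, to 32 when the floor was the 10th percentile and to 5 with 1 probe set per gene, where 1 was lower, and both were 0 with any 1 array left out. The causes were not tested. The median difference of the PEX genes between the media ran from -0.12 to 0.25 with 1 array left out. The number of PEX genes at least 2-fold higher on galactose C than on galactose B, 1 as reported, was 2 after quantile normalization and 3 after the shift to a common median. That of beta-oxidation genes was 5 to 7 in the other settings between the galactose arrays and 5 to 7 between the glucose arrays. The number of beta-oxidation genes with both 2-fold differences, 5 as reported, was 4 with the floor at the 40th percentile. It was also 4 with no floor and with the mean over the probe sets of a gene. The number of arrays limits these values, as does a signal near the floor for DCI1 and a low signal for other members such as PEX4. An exact permutation test of 2 arrays against 2 has a smallest p of 0.333.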

Other observations

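The pattern of FOX2 and POT1 was not confined to peroxisomal genes. Of 5403 genes tested with 1 probe set each, 111 (2.05%) were at least 2-fold higher on galactose C than on galactose B and at least 2-fold higher on glucose A than on glucose B, among them 5 of the 37 members. Ranked by the smaller of the 2 log2 differences, FOX2 stood at place 16 and POT1 at place 82. The first 4 genes of this ranking are named after their values were seen. GRE1, a stress-induced gene, stood at 267 and 1471 in galactose B and C, against 2361 and 409.9 in glucose A and B. HSP30, a plasma membrane heat shock gene, stood at 1033 and 5185 in galactose B and C, against 4247 and 616 in glucose A and B. YNL194C stood at 185 and 895 in galactose B and C, against 1236 and 259.9 in glucose A and B. HSP26, a small heat shock chaperone gene, stood at 230.2 and 1059 in galactose B and C, against 839 and 125 in glucose A and B.

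CTA1, SPS19 and ADH2, named after their values were seen, had glucose A well above the other 3 arrays. Other genes did too. CIT2, from the list of other peroxisomal enzymes, had 989 and 925 in galactose B and C, against 2385 and 1003 in glucose A and B. FDH1 had 64.6 and 147 in galactose B and C, against 6999 and 371 in glucose A and B. CTA1 was 6.90-fold higher on glucose A than on glucose B and 2.40-fold higher on galactose C than on galactose B, SPS19 2.94-fold and 1.82-fold, and ADH2 11.7-fold and 1.90-fold.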
